A study of Homo sapiens with 6 samples.

Results

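YAP (gene *YAP1*), its paralogue TAZ (gene *WWTR1*), the transcription factors TEAD1, TEAD2, TEAD3 and TEAD4 that both of them bind, and VGLL4 form the nuclear end of the Hippo pathway. These 7 genes were chosen by name from this pathway, and all 7 were found among the 58735 genes of the deposited tables and passed the filter that left 13718 genes for testing. The question was whether the fall of *YAP1* mRNA after knockdown of Prp19 was particular to *YAP1* or was shared by its paralogue and partners. RNA sequencing (RNA-seq) was done on SK-N-AS, an established line of human neuroblastoma, 72 h after transfection by the labels, although the study's methods state a shorter time. The cells received a small interfering RNA that targets Prp19 (siPrp19) or a negative control (NC). Prp19, encoded by *PRPF19*, is a splicing factor of the complex that activates the spliceosome. There were 3 libraries per group, all from this 1 line with no other agent named. The study's methods call them biological replicates, the labels name no separate cultures, and p-values measure the spread between these libraries.

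The labels of this series contradict the files. Each library is named here by its value column (NCa, NCb, NCc, siPrp19a, siPrp19b or siPrp19c), which is the description of one sample. In 4 of the 6 files, the column carries a description that belongs to another sample than the file's recorded one, and for 2 of them, NCb and siPrp19b, the recorded sample is of the opposite group. Results are therefore given by column name first, then for the 4 libraries whose column and record state one group (NCa, NCc, siPrp19a and siPrp19c), and then for the groups as the files are recorded. *PRPF19* was at 83.0, 83.1 and 93.0 FPKM (fragments per kilobase of exon, corrected for library size) in NCa, NCb and NCc, and at 19.6, 19.1 and 18.5 FPKM in siPrp19a, siPrp19b and siPrp19c. By column name the targeted gene was thus 77.9% lower in siPrp19. As recorded, the level of *PRPF19* goes against the recorded group in the libraries NCb and siPrp19b.

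In the Hippo pathway, a kinase cascade phosphorylates YAP and TAZ, which are then held in the cytoplasm or degraded. Unphosphorylated YAP and TAZ enter the nucleus, and since they cannot bind DNA themselves, they act through the TEAD factors to switch on genes of growth, adhesion and the cytoskeleton. VGLL4 occupies the same face of the TEAD factors and acts there as a repressor. In neuroblastoma, YAP is known above all from lines with mesenchymal features.

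The reads recovered from the deposited values numbered between 14887132 and 19977811 per library. Between 5.15% and 5.49% of them came from mitochondrial genes in 5 libraries and 8.29% in siPrp19a. Pairs of libraries were compared by a chi-square test of the recovered reads over genes. Its statistic per degree of freedom, near 1 for sampling noise alone, was 1.75 between NCa and NCb and 2.85 between siPrp19b and siPrp19c. For the other 13 pairs it was 21.5 to 56.5. Among these, pairs within a column group were at 21.8 to 26.0 and pairs across the groups at 21.5 to 56.5. Some pairs across the groups were thus closer than pairs within a group. NCc and siPrp19a hence stood apart from the rest of their column groups, and whether the close pairs came from separate cultures cannot be told from the files. The 7 markers of adrenergic neuroblastoma summed to 299 to 316 FPKM in NC and 235 to 246 FPKM in siPrp19. The largest part was *HAND2*, a transcription factor of sympathetic neuroblasts. It was at 162 to 170 FPKM in the NC columns and 117 to 144 FPKM in the siPrp19 columns. In the same list, *TH* was at only 0.312 to 0.662 FPKM and *ISL1* at 6.31 to 7.82 FPKM over all libraries. The 6 mesenchymal markers summed to 208 to 235 FPKM in NC and 167 to 194 FPKM in siPrp19. The 7 markers of epithelium and blood summed to 34.2 to 38.0 FPKM in NC and 24.1 to 27.7 FPKM in siPrp19. Of the blood markers in this list, *CD3E* and *HBB* were at 0 in all 6 libraries, while *PTPRC* was at 16.9 to 30.7 FPKM. Most of that sum was *PTPRC*. It was lower in siPrp19 (log2 fold change -0.63, adjusted p = 0.0202 by limma), a call lost under quantile normalization (adjusted p = 0.0511 by limma). The part of these marker levels in the results below was not tested.

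*YAP1* (ENSG00000137693), the gene of the coactivator YAP, is found on chromosome 11 (102110461 to 102233423, plus strand; GRCh38, GENCODE 29). It spans 123 kb with 11 merged exons. Its paralogue *WWTR1* (ENSG00000018408) is found on chromosome 3 (149517235 to 149736714, minus strand) and spans 219 kb with 19 merged exons. The promoters of this pair are shown because their genes encode the 2 coactivators of the TEAD factors and both fell in the comparison by column name. The sequences run from 250 bases before to 50 bases after a start site in RefSeq (GRCh38.p14), on the strand of the gene. Capitals mark the core of the TEAD motif, GGAATG, which was searched on both strands.
YAP1 promoter, chr11:102110197-102110496, plus strand: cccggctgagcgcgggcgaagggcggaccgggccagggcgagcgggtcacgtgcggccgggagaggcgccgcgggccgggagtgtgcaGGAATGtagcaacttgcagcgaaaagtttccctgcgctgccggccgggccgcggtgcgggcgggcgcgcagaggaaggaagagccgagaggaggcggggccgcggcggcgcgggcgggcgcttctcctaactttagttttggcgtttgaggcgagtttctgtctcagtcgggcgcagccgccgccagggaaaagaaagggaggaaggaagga
WWTR1 promoter, chr3:149657976-149658275, minus strand: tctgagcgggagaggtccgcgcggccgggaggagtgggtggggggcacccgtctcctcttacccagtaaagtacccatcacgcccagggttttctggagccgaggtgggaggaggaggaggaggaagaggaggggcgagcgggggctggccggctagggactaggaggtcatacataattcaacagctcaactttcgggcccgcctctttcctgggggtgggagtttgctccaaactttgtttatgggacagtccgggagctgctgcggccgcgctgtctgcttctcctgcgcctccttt
WWTR1 promoter, chr3:149703224-149703523, minus strand: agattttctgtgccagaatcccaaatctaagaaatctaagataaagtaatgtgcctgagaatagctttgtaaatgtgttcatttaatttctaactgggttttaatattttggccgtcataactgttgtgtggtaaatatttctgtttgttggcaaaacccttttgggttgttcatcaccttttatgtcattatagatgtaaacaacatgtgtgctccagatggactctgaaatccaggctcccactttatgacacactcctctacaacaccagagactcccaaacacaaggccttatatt

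The *YAP1* promoter held 1 match, on the plus strand, with its first base 162 bases before the start site, while neither *WWTR1* promoter held one. Of the 7 genes, 5 had a promoter in the RefSeq table, namely *YAP1*, *WWTR1*, *TEAD2*, *TEAD3* and *VGLL4*, with 11 promoters in all. No match was found in the 5 promoters of *VGLL4*, the 2 of *TEAD2* or the 1 of *TEAD3*. The motif occurred in 14.0% of all 35116 promoters of this length, so a match in 1 promoter describes the sequence only. The GC content was 70.7% in the *YAP1* promoter, and 63% and 37% in the *WWTR1* promoters in the order shown.

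*YAP1* mRNA was at 20.7 FPKM in NCa, 20.9 FPKM in NCb and 17.5 FPKM in NCc, and at 7.65 FPKM in siPrp19a, 7.67 FPKM in siPrp19b and 8.42 FPKM in siPrp19c. Every siPrp19 column was below every NC column, and the lowest NC column was still far above the highest siPrp19 column. The mean was 19.7 ± 1.91 FPKM (SD, n = 3) in NC and 7.91 ± 0.438 FPKM (SD, n = 3) in siPrp19, a level 59.8% lower, on 761 to 2065 reads per library. The log2 fold change of FPKM + 1 was -1.21 ± 0.088 (SE; 95% CI -1.42 to -1.01; adjusted p = 0.00182 by limma over all 13718 tested genes). By the size of its fall, *YAP1* ranked 23 among these genes. Here as for every gene below, fewer cells expressing the gene and less mRNA per cell cannot be told apart in bulk RNA. The antisense gene *AP000942.2*, which overlaps *YAP1* on the opposite strand, was listed at 0 in all libraries; the strandedness of counting is not given in the sources used here.

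*WWTR1*, the gene of TAZ, which shares the TEAD factors with YAP, was at 9.03, 9.40 and 8.76 FPKM in NCa, NCb and NCc and at 6.66, 5.32 and 5.74 FPKM in siPrp19a, siPrp19b and siPrp19c. The columns did not overlap, and siPrp19a was the highest of its group. The mean fell from 9.06 ± 0.319 to 5.91 ± 0.684 FPKM (SD, n = 3), which was 34.8% lower. On the log2 scale this was a change of -0.55 ± 0.087 (SE; adjusted p = 0.0146 by limma). *WWTR1* fell short of the threshold when NCa, NCb, siPrp19b or siPrp19c was left out, with adjusted p-values of 0.0672, 0.0655, 0.0662 and 0.0723.

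*VGLL4*, whose product competes with YAP and TAZ for the TEAD factors, was at 6.31, 6.32 and 5.49 FPKM in NCa, NCb and NCc and at 3.53, 3.76 and 3.88 FPKM in siPrp19a, siPrp19b and siPrp19c. Again no siPrp19 column reached an NC column. The mean was 6.04 ± 0.477 FPKM in NC and 3.72 ± 0.179 FPKM in siPrp19 (SD, n = 3), a level 38.4% lower, or -0.57 ± 0.079 on the log2 scale (SE; adjusted p = 0.00961 by limma). Without NCa the adjusted p-value was 0.0550, and without siPrp19b it was 0.0509. *VGLL4* spans 215 kb on the minus strand of chromosome 3 (11556070 to 11771350), where it overlaps *ATG7*, a gene of autophagy on the opposite strand at 1.62 to 2.31 FPKM, whose reads may be counted with it if strand was not used. The repressor and both coactivators of the TEAD factors were therefore lower together. The other VGLL genes were next to silent, with *VGLL1* and *VGLL2* at 0 in all libraries and *VGLL3* at no more than 0.0199 FPKM.

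**Figure D1:**
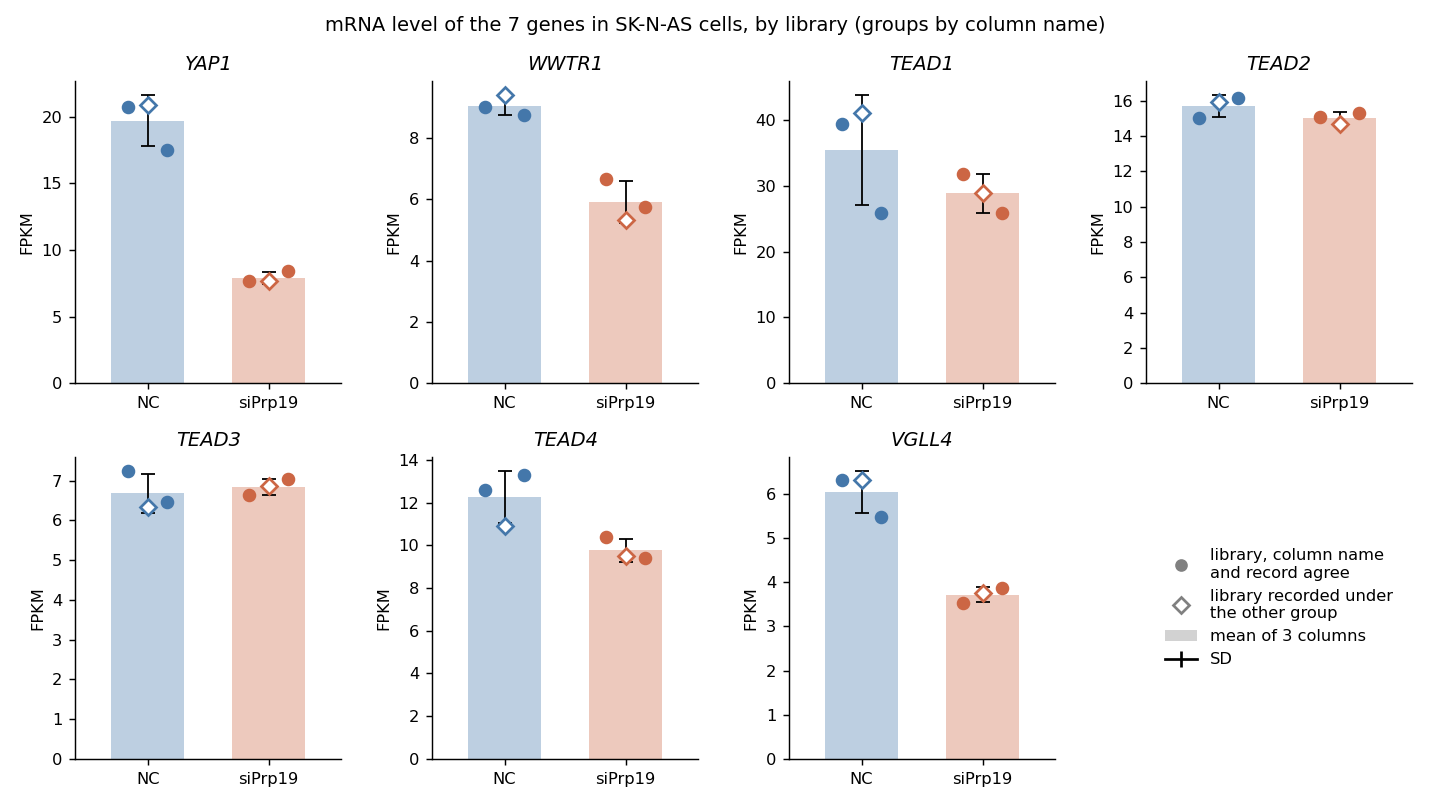
FPKM of the 7 genes in each library, grouped by column name (bars, mean of 3 libraries; error bars, SD; open diamonds, the libraries NCb and siPrp19b that are recorded under the other group). The groups do not overlap for *YAP1*, *WWTR1*, *VGLL4* and *TEAD4*, and overlap for *TEAD1*, *TEAD2* and *TEAD3*.

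The TEAD factors, which carry the DNA-binding domain of the complex, did not pass the test. *TEAD2*, on chromosome 19 (minus strand, 49340595 to 49362457), was at 15.0, 15.9 and 16.2 FPKM in NCa, NCb and NCc and at 15.1, 14.7 and 15.3 FPKM in siPrp19a, siPrp19b and siPrp19c. Its groups overlapped, and the log2 fold change was -0.06 (95% CI -0.21 to 0.09; adjusted p = 0.622 by limma). The sign of this small difference turned under quantile normalization (0.00996) and under voom (0.02). *TEAD3*, on chromosome 6 (minus strand, 35473597 to 35497076), was at 7.24, 6.32 and 6.47 FPKM in the NC columns and at 6.63, 6.86 and 7.04 FPKM in the siPrp19 columns, in the same order of libraries. Its log2 fold change was 0.03 (95% CI -0.14 to 0.20, adjusted p = 0.831 by limma). The intervals of *TEAD2* and *TEAD3* thus hold no fall as large as the estimate for *YAP1*, *WWTR1* or *VGLL4*.

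*TEAD4* (chromosome 12, plus strand, 2959330 to 3040673) was at 12.6, 10.9 and 13.3 FPKM in NCa, NCb and NCc and at 10.4, 9.52 and 9.39 FPKM in siPrp19a, siPrp19b and siPrp19c. The columns did not overlap, but the gap between NCb and siPrp19a was small. The log2 fold change of -0.30 ± 0.088 (SE; 95% CI -0.50 to -0.09) missed the threshold, at an adjusted p of 0.0929 by limma.

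*TEAD1* (chromosome 11, plus strand, 12674591 to 12944483) had the highest level of the 7 genes. It was at 39.4 FPKM in NCa, 41.0 FPKM in NCb and 25.8 FPKM in NCc, and at 31.7 FPKM in siPrp19a, 28.99 FPKM in siPrp19b and 25.8 FPKM in siPrp19c. NCc was at the level of the lowest siPrp19 column and far below NCa and NCb. The log2 fold change was -0.26 (95% CI -0.68 to 0.16; adjusted p = 0.429 by limma). This result depended on NCc, since without it the change was -0.47 and passed the threshold (adjusted p = 0.0374 by limma). The NC group was then only the close pair NCa and NCb, and 1354 of the 13718 tested genes were called. With NCa and NCb averaged as 1 library, and siPrp19b and siPrp19c likewise, the change was -0.13 (adjusted p = 0.840 by limma).

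Of the 7 genes, 3 were called lower and none higher at an adjusted p-value under 0.05 by limma. Among all tested genes 7.94% were called in either direction and 5.37% were called lower. All siPrp19 columns lay below all NC columns for 4 of the 7 genes (*YAP1*, *WWTR1*, *VGLL4* and *TEAD4*), against 18.1% of all tested genes. The median log2 fold change was -0.30 over the 7 genes and -0.02 over all tested genes. These counts and this median include *YAP1*. Its fall was known beforehand, because the study had reported it from RNA-seq of this line. Only the other genes therefore bear on whether the fall was shared. Among them, *WWTR1* and *VGLL4* were called lower, *TEAD4* was free of overlap but not called, and *TEAD1*, *TEAD2* and *TEAD3* overlapped. Without NCc, the NC library that stood apart, the log2 fold changes of *YAP1*, *WWTR1* and *VGLL4* were -1.29, -0.57 and -0.63. Without siPrp19a, they were -1.19, -0.62 and -0.54, and these 3 genes passed the threshold in both fits. The group that lost a library was then a close pair (NCa with NCb, or siPrp19b with siPrp19c). Its spread was therefore small, so these passes are no separate support. In all, 1354 of the 13718 tested genes were called without NCc and 1033 without siPrp19a. Without NCa, NCb, siPrp19b and siPrp19c the counts were 264, 335, 270 and 253. When each library was left out in turn, *YAP1* passed in all 6 fits, with adjusted p-values from 0.00262 to 0.0191.

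In the 4 libraries whose column and record state one group, 2 genes (0.0146% of those tested) passed the threshold by limma, none of the 7 among them, and 1685 had an unadjusted p-value under 0.05. *YAP1* was at 19.1 ± 2.27 FPKM in NC and 8.04 ± 0.543 FPKM in siPrp19 (SD, n = 2), a log2 fold change of -1.15 (95% CI -1.49 to -0.82; adjusted p = 0.0819 by limma). The log2 fold changes were -0.55 for *VGLL4* (adjusted p = 0.190), -0.46 for *WWTR1* (0.242), -0.36 for *TEAD4* (0.340), -0.15 for *TEAD1* (0.814), -0.03 for *TEAD2* (0.929) and -0.0026 for *TEAD3* (0.996). The order of *YAP1*, *VGLL4* and *WWTR1* by size of fall was that found by column name. These libraries are part of the same 6 with the same groups, so the like order is no separate support. By column name *VGLL4* (-0.57) and *WWTR1* (-0.55) were close, and their order turned when NCa or siPrp19a was left out.

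As the files are recorded, no gene was called by limma (0% of those tested), while the unadjusted p-value was under 0.05 for 191. *YAP1* was at 15.3 ± 6.80 FPKM in the recorded NC group and 12.3 ± 7.43 FPKM in the recorded siPrp19 group (SD, n = 3), and the groups overlapped. Its log2 fold change of -0.32 ± 0.44 (SE) did not pass, and all 7 genes had adjusted p-values of 1.00. The fall of *YAP1* by column name therefore depends on taking the group of NCb and siPrp19b from the column name, or on leaving both out. When the close pairs (NCa with NCb, and siPrp19b with siPrp19c) were averaged and counted as 1 library each, an alternative chosen after seeing the data, 2 genes (0.0146%) were called, none of the 7 among them, and 1708 had an unadjusted p-value under 0.05. The log2 fold change was then -1.18 for *YAP1* (adjusted p = 0.0974 by limma), -0.50 for *WWTR1* (adjusted p = 0.216) and -0.56 for *VGLL4* (adjusted p = 0.166).

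**Figure D2:**
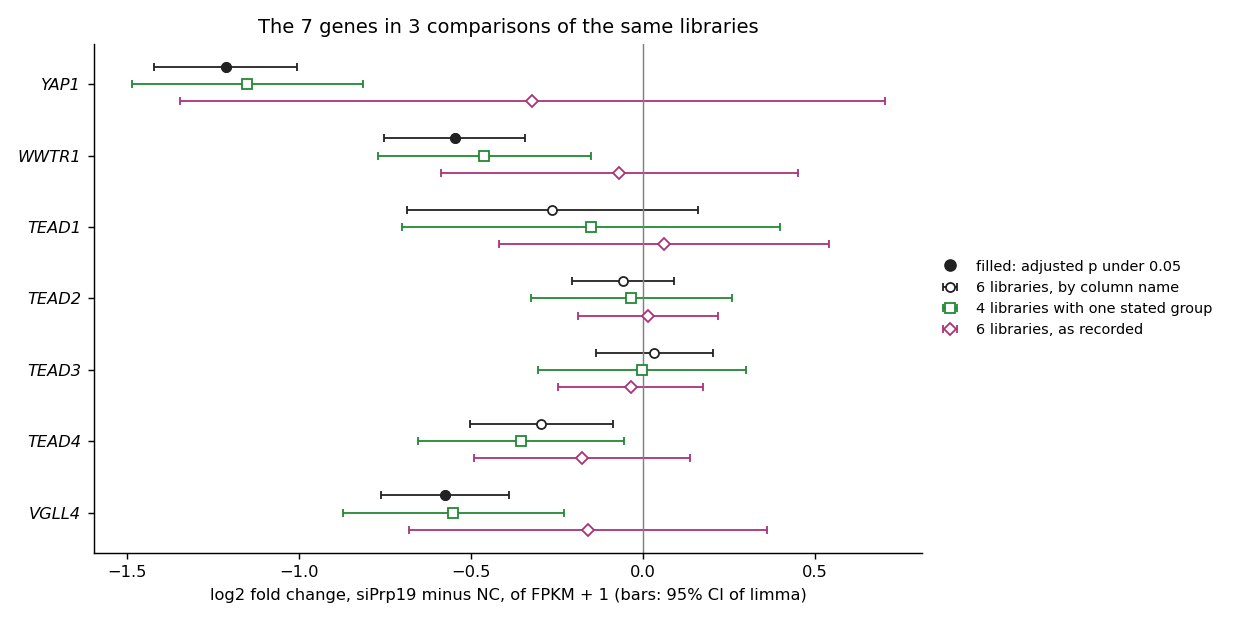
Log2 fold change of FPKM + 1 (siPrp19 minus NC) of the 7 genes with the 95% confidence interval of limma, in the 6 libraries by column name, in the 4 libraries whose column and record state one group, and in the 6 libraries as recorded. Filled symbols passed an adjusted p-value of 0.05, which was reached by *YAP1*, *WWTR1* and *VGLL4* by column name and by none of the 7 genes in the other comparisons.

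To compare the fall of *YAP1* with that of each partner directly, the ratio of their FPKM was formed within each library. *YAP1* over *WWTR1* was 2.29, 2.22 and 2.00 in NCa, NCb and NCc and 1.15, 1.44 and 1.47 in siPrp19a, siPrp19b and siPrp19c, so that it was lower in every siPrp19 column than in every NC column. On the log2 scale, its difference (siPrp19 minus NC) was -0.69. *YAP1* over *VGLL4* was 3.26 ± 0.0619 in NC and 2.13 ± 0.0756 in siPrp19 (SD, n = 3), a log2 difference of -0.62.

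For the TEAD factors, the log2 differences of the ratio were -1.04 (*TEAD1*), -1.25 (*TEAD2*), -1.35 (*TEAD3*) and -0.99 (*TEAD4*). *YAP1* over *TEAD1* went from 0.571 ± 0.0929 to 0.277 ± 0.0438, *YAP1* over *TEAD2* from 1.26 ± 0.156 to 0.527 ± 0.0212, *YAP1* over *TEAD3* from 2.96 ± 0.311 to 1.16 ± 0.0395 and *YAP1* over *TEAD4* from 1.63 ± 0.300 to 0.813 ± 0.0804 (SD, n = 3). All 6 ratios were lower in every siPrp19 column than in every NC column. By the exact permutation test (two-sided), p was 0.1 for each of the 6 ratios and 0.1 after adjustment over them, and no smaller p-value is possible with 3 libraries against 3. As recorded, the groups overlapped for all 6 ratios, with exact permutation p-values from 0.4 to 1. The 6 ratios share the values of *YAP1* and are not independent of each other.

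**Figure D3:**
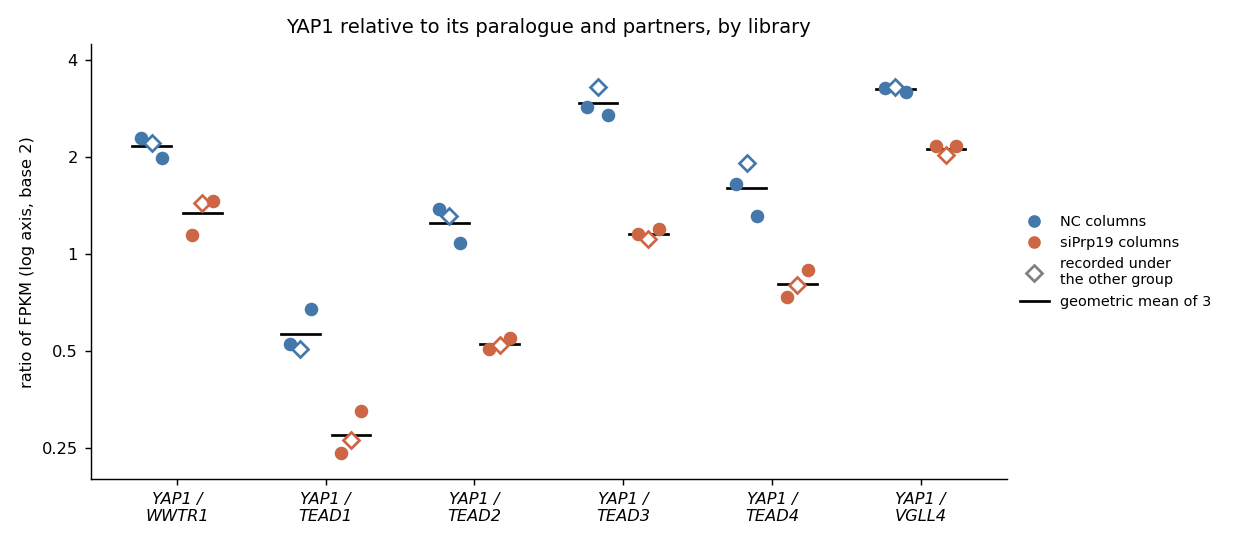
Ratio of the FPKM of *YAP1* to that of *WWTR1*, each TEAD factor and *VGLL4* in each library, on a log axis of base 2 (lines, geometric mean of 3 libraries; open diamonds, libraries recorded under the other group). The siPrp19 columns lie below the NC columns for each ratio, with the ratio of *YAP1* to *WWTR1* going from between 2.00 and 2.29 to between 1.15 and 1.47.

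FPKM is per length of exon, here the merged exons of all annotated transcripts. Setting the levels of the genes side by side assumes that the cells use these exons, which was not tested. In the NC columns the order of the mean levels was *TEAD1* (35.4 FPKM), *YAP1* (19.7), *TEAD2* (15.7), *TEAD4* (12.2), *WWTR1* (9.06), *TEAD3* (6.68) and *VGLL4* (6.04). The libraries of neighbours in this order did not overlap, although *TEAD3* and *VGLL4* differed by less than the sum of their SDs. In the siPrp19 columns the order was *TEAD1* (28.9 FPKM), *TEAD2* (15.0), *TEAD4* (9.77), *YAP1* (7.91), *TEAD3* (6.84), *WWTR1* (5.91) and *VGLL4* (3.72). *YAP1* had moved from the second place to the fourth, and *TEAD3* and *WWTR1* now overlapped.

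The level of the coactivators together, *YAP1* plus *WWTR1*, was 28.8 ± 2.18 FPKM in NC and 13.8 ± 0.722 FPKM in siPrp19 (SD, n = 3), a sum 52.0% lower. *YAP1* made up 69.6%, 69.0% and 66.6% of this sum in NCa, NCb and NCc and 53.5%, 59.0% and 59.5% in siPrp19a, siPrp19b and siPrp19c. *YAP1* remained the larger of the pair in every library, by least in siPrp19a. The 4 TEAD genes summed to 70.0 ± 7.18 FPKM in NC and 60.5 ± 3.15 FPKM in siPrp19, and these groups overlapped. *TEAD1* provided between 41.8% and 55.3% of the TEAD sum in every library. The ratio of the TEAD sum to the sum of both coactivators was 2.50, 2.45 and 2.35 in NCa, NCb and NCc and 4.46, 4.62 and 4.07 in siPrp19a, siPrp19b and siPrp19c. *VGLL4* over the coactivator sum was 0.210 ± 0.00200 in NC and 0.270 ± 0.0218 in siPrp19. These sums and ratios are descriptions of mRNA, rest on the same assumption about exon length and were given no test.

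Across the 6 libraries, the tested genes outside the lists whose log2(FPKM + 1) was most like that of *YAP1* were *KCTD10* (Pearson r = 0.9986), *NALF1* (0.9982), *INHBA* (0.9982), *MTDH* (0.9980) and *LMAN1* (0.9977). All 5 were lower in every siPrp19 column than in every NC column, which was largely fixed by choosing them for likeness to *YAP1*. *INHBA*, which encodes the activin A subunit, was at 6.04 ± 1.09 FPKM in NC and 1.47 ± 0.0764 FPKM in siPrp19 (SD, n = 3). Among the partners, r was 0.995 for *VGLL4*, with 15 tested genes more like *YAP1*, and 0.951 for *WWTR1*, with 446 more like it. It was 0.794 for *TEAD4*, 0.606 for *TEAD2*, 0.587 for *TEAD1* and -0.22 for *TEAD3*, and 0.980 for *PRPF19*. These values are descriptions over 6 libraries that fall into 2 groups, so they mostly restate the difference between the groups.

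Proteins that bind YAP or TAZ at junctions or in the nucleus, other than the TEAD factors, were read next. Of 16 listed genes, 11 were tested, 1 rose, 1 fell and 9 did not pass, with a median log2 fold change of -0.02, which was that of all tested genes. For this list and those below, the shares over all tested genes were 5.37% called lower and 7.94% called in either direction. *RUNX2*, a Runt transcription factor bound by YAP and TAZ, fell from 6.54 to 3.54 FPKM (log2 fold change -0.73, adjusted p = 0.00827 by limma). *SMAD3*, which relays TGF-beta signals, rose from 27.0 to 35.1 FPKM (log2 fold change 0.37, adjusted p = 0.0390 by limma). The angiomotins, which hold YAP at junctions, did not pass, at -0.47 for *AMOT* (adjusted p = 0.0857 by limma), 0.12 for *AMOTL1* and -0.12 for *AMOTL2*.

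Factors of YAP and TAZ turnover and retention had 10 of 11 genes tested, of which none rose and 2 fell, with a median of -0.11. *YWHAZ*, which encodes one of the phosphoserine-binding proteins that hold phosphorylated YAP in the cytoplasm, was at 103, 100 and 99.8 FPKM in NCa, NCb and NCc and at 44.5, 39.3 and 40.0 FPKM in siPrp19a, siPrp19b and siPrp19c. Its log2 fold change of -1.27 (adjusted p = 0.00161 by limma) was close in size to that of *YAP1*. *YWHAZ* has processed pseudogenes that can share its reads. Its family member *YWHAB* also fell (-0.34, adjusted p = 0.0403 by limma), but not under quantile normalization (-0.23, adjusted p = 0.157), where the median of the list was 0.00074. The ubiquitin ligase subunits *BTRC* and *FBXW11*, which mark YAP and TAZ for degradation, did not pass, at 0.16 and -0.12.

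Of 14 kinases and scaffolds of the Hippo cascade, 13 were tested, none rose, 2 fell and 11 did not pass, with a median of -0.06. *FRMD6*, an upstream scaffold, fell from 19.5 ± 1.85 to 9.01 ± 0.156 FPKM (SD, n = 3; log2 fold change -1.03, adjusted p = 0.00206 by limma). *MOB1A*, which encodes the activator of the LATS kinases, fell by 0.41 on the log2 scale (adjusted p = 0.0342 by limma), a call lost under quantile normalization (adjusted p = 0.0860). None of the 8 TEAD coactivators of general transcription, among them *EP300* and *MED1*, passed the test, with a median of 0.11.

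Of the 22 genes in the signature of YAP/TAZ targets, 19 were tested, with 1 higher, 6 lower and 12 that did not pass, and a median log2 fold change of -0.12. The largest falls were those of *ANKRD1* (2.12 to 0.737 FPKM, -0.84), *NT5E* (73.8 to 46.4 FPKM, -0.66), *CCDC80* (16.3 to 10.1 FPKM, -0.64) and *CCN2* (2.04 to 1.08 FPKM, -0.55), with adjusted p-values of 0.0151, 0.0111, 0.00565 and 0.0200 by limma. *ANKRD1* rested on 22 to 84 reads per library and *CCN2* on 37 to 82. *ANKRD1* and *CCN2* are widely used to read out YAP activity. *NUAK2*, a kinase named here after its value was seen, rose from 6.07 to 8.26 FPKM (0.39, adjusted p = 0.0161 by limma). Under quantile normalization, 4 genes of this list passed, 1 higher and 3 lower, and *NT5E* was among those that did not (adjusted p = 0.0593 by limma).

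Of 6 markers of the mesenchymal neuroblastoma state, 5 were tested and none passed. Their median log2 fold change was -0.23, against -0.02 for all tested genes, and under quantile normalization it was -0.14, against 0.01. Of 7 adrenergic markers, 6 were tested, 1 fell and none rose, with a median of -0.28. Under quantile normalization none of the adrenergic markers passed, and their median was -0.18. The shift was thus not particular to the mesenchymal list.

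**Figure D4:**
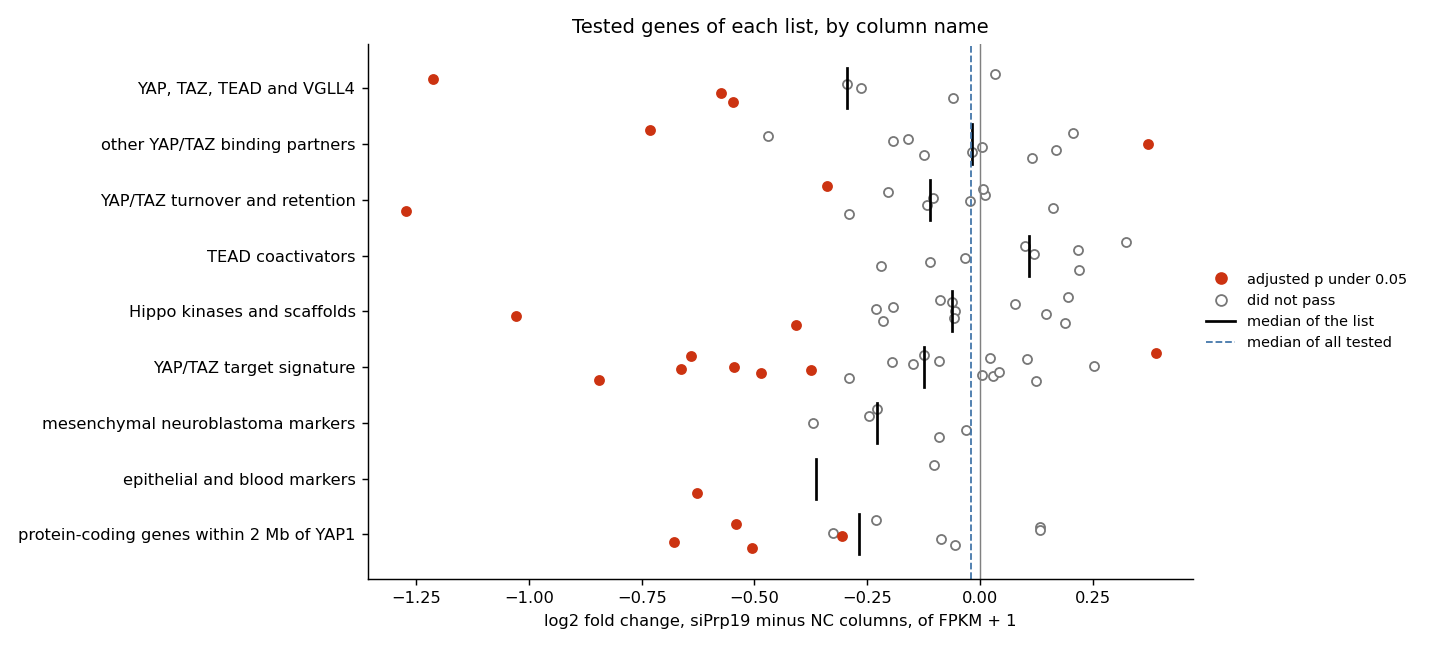
Log2 fold change (siPrp19 minus NC columns, of FPKM + 1) of each tested gene of each list shown (filled points, adjusted p under 0.05 by limma; black lines, median of the list; dashed line, median of all 13718 tested genes). *YAP1* at -1.21 and *YWHAZ* at -1.27 lie farthest to the left, and among the TEAD coactivators no point is filled. The adrenergic markers are not drawn.

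Genes beside *YAP1* on chromosome 11 were examined to see whether the neighbourhood moved with it. Of 23 protein-coding genes within 2 Mb, 10 were tested, of which 4 fell and none rose, with a median of -0.27. Among all tested genes, 5.37% were called lower and 7.94% in either direction, and the median was -0.02. On the left, the nearest protein-coding gene was *CFAP300*, 25.9 kb from *YAP1*, at 1.22 FPKM in NC and 1.41 FPKM in siPrp19, a difference of 0.13 that did not pass (adjusted p = 0.704 by limma). On the right, the nearest was *BIRC3*, an inhibitor of apoptosis gene 84.0 kb away. It was at 9.82, 10.5 and 8.99 FPKM in NCa, NCb and NCc and at 7.03, 5.96 and 6.21 FPKM in siPrp19a, siPrp19b and siPrp19c, and its log2 fold change was -0.54 (adjusted p = 0.0149 by limma). *BIRC2*, its paralogue, fell by 0.31 (adjusted p = 0.0336) and *TMEM123* by 0.68 (adjusted p = 0.00274 by limma), the latter from 52.6 ± 0.884 to 32.5 ± 0.577 FPKM (SD, n = 3). *DCUN1D5*, 829 kb away, was just past the threshold at -0.51 (adjusted p = 0.04996 by limma). Under quantile normalization, *BIRC3* and *TMEM123* kept their calls, while *BIRC2* (adjusted p = 0.0699 by limma) and *DCUN1D5* (0.0505) did not pass. In that setting 586 of all 13718 tested genes were called lower.

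**Figure D5:**
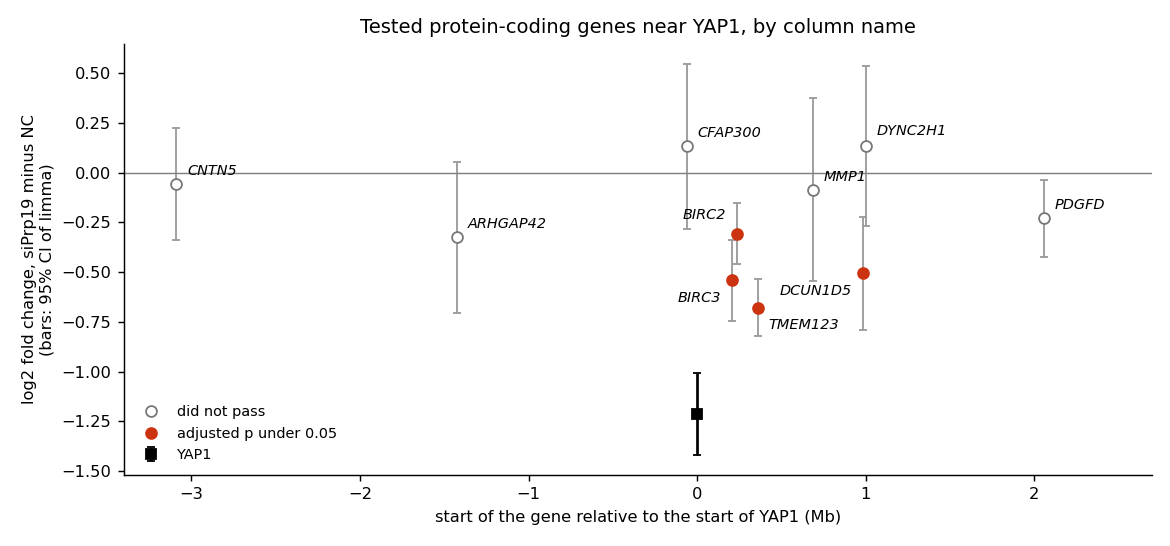
Log2 fold change (siPrp19 minus NC columns, of FPKM + 1) with the 95% confidence interval of limma of the tested protein-coding genes near *YAP1*, against the distance of their start from the start of *YAP1* in Mb. *BIRC3*, *BIRC2*, *TMEM123* and *DCUN1D5*, all to the right of *YAP1* (black square, -1.21), passed an adjusted p-value of 0.05, and no gene on the left did.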

How the data were processed

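Libraries for sequencing were prepared from TRIzol-extracted total RNA of SK-N-AS cells with an NEBNext Ultra kit. The submitters' processing notes name HISAT2 2.0.5, featureCounts 1.5.0-p3 and genome build hg38. The authors deposited FPKM values, one column per library, for 58735 Ensembl genes, which were named with a table of current symbols (58207) and GENCODE 29 (528). Each column was assigned to the sample whose description it carries. The values were whole multiples of the worth of 1 read for 100% of values above 0 (tolerance 0.05 reads, exon lengths of GENCODE 29), so the reads were recovered, and the total per library limits the precision of low genes.

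Tested genes had a mean FPKM over all 6 libraries of 1 or more. Values were log2(FPKM + 1), on which fold changes of low genes are understated, and were fitted with limma 3.58.1 (R 4.3.3; moderated test with a mean-variance trend) with Benjamini-Hochberg adjustment over all tested genes and a threshold of 0.05. For ratios, the exact permutation test of scipy 1.17.1 was used, two-sided. Promoter sequences came from RefSeq and figures from matplotlib 3.10.9. The procedure was tested on simulated data with 200 genes changed by 1.58 on the log2 scale. With 6 libraries, 181 of the 189 changed genes that were tested were recovered, beside 20 false calls. With 4 libraries, 174 of 190 were recovered, beside 14 false calls. The simulated libraries were drawn independently, without close pairs, so they cannot show how limma behaves where libraries are as unequally alike as here. Alternatives comprised no filter, a pseudocount of 0.1, other scalings, no trend, voom on the recovered reads, a block for the replicate number, other groupings and the removal of each library in turn. The named genes were the 7 genes, *PRPF19*, at most 4 called genes per list with the largest change, the nearest coding genes of *YAP1* and the 5 genes most like it. The genes and lists were chosen with earlier results of these data known. Where the text names others, they were chosen after their values were seen. Some results on single genes of the lists are not reported here.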

Additional observations from a re-analysis of the deposited data

How the results depend on the processing

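By column name, the call of *YAP1* was kept under the pseudocount of 0.1, no filter, quantile normalization, the same FPKM sum, median ratio scaling, no trend, voom and the replicate block, with 3 of the 7 genes called in each. The replicate block gave 928 genes, *YAP1* at -1.21 (adjusted p = 0.00962 by limma) and, as recorded, 0 genes (263 with an unadjusted p-value under 0.05). It changed no call of the 7 genes. By column name, the deviations from the group means correlated at r = 0.13, -0.05 and 0.20 between libraries of the same replicate number, so the numbers were not taken to pair the libraries, and not every library correlated best with its own number. Of 1089 genes called, 353 were higher and 736 lower. The count was 512 without the filter and 656 with the same FPKM sum. The split was 501 higher and 586 lower under quantile normalization and 753 and 614 under voom. The count was 2 genes, none of the 7, in the 4 libraries (*YAP1* -1.15) and with close pairs averaged (*YAP1* -1.18), and 0 genes, 0 of the 7, as recorded (*YAP1* -0.32). As recorded, *TEAD1* (0.0612), *TEAD2* (0.014) and *TEAD3* (-0.0359) had the opposite sign, as had *TEAD3* in the 4 libraries (-0.0026) and *TEAD2* under quantile normalization (0.00996) and voom (0.016). The cause was not tested, beyond the fewer or exchanged libraries that define the groupings. The library size implied by FPKM, divided by the recovered reads, was 0.963 to 0.991 in the NC columns and 1.01 to 1.05 in the siPrp19 columns. FPKM thus put siPrp19 lower against NC than the recovered reads did. The part of this offset in the turned signs, the split of calls and the list medians was not tested. Leaving out one library gave 253 to 1354 genes, 1 to 4 of the 7 genes called, and ranges of -1.29 to -1.17 for *YAP1*, -0.47 to -0.15 for *TEAD1*, -0.09 to -0.04 for *TEAD2* and -0.00058 to 0.0843 for *TEAD3*.

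In the 4 libraries, no filter gave 0 genes (3199 at an unadjusted p-value under 0.05), and quantile normalization turned *TEAD2* to 0.0491 and *TEAD3* to 0.0204. Leaving out one of the 4, where the lone library of a group is assumed to vary like the others, gave 0 to 70 genes, -1.27 to -1.04 for *YAP1*, -0.45 to 0.14 for *TEAD1*, -0.0838 to 0.016 for *TEAD2* and -0.073 to 0.0679 for *TEAD3*. Read depth limits *TEAD3* and *TEAD4* most, on 284 to 519 reads per library. The 4 libraries were recomputed only with a pseudocount of 0.1, no filter, quantile normalization and one library left out, and the recorded groups only with the replicate block.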
